A study of Mus musculus with 18 samples.

Results

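The genes described here are 39 genes of DNA replication and mitosis, taken by name, with earlier results of these data known when they were chosen. They were divided into 16 replication genes and 23 mitosis genes, and a gene was measured where the array holds a probe set that maps to its symbol alone. This was so for 38 of the 39 genes, out of 19938 genes with such a probe set. All 16 replication genes and 22 mitosis genes are among them, and *Ccnb1*, which encodes cyclin B1, has no such probe set and has no value here. *Pcna* and *Top2a* have a second probe set, and the brighter one was used.

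RNA from whole lung was hybridized to 18 Affymetrix Mouse Gene 1.0 ST arrays, which fall into 6 groups of 3. In *ScapΔ/Δ* mice a floxed *Scap* gene is removed by a Cre recombinase under (tetO)7CMV, which the reverse tetracycline activator SP-C-rtTA switches on in lung epithelium while the dams receive doxycycline in early gestation; their controls are *Scapflox/flox* littermates without the activator or without Cre. Arrays C7, C8 and C9 are controls and KO10, KO11 and KO12 are *ScapΔ/Δ* lungs at E18.5, counted in embryonic days, and at PN1, the day of birth, the controls are C13, C14 and C15 and the deleted lungs KO16, KO17 and KO18. In the *Insig* line *Insig1* is removed in the same way and the controls are *Insig1flox/flox Insig2-/-* littermates, so all 6 arrays lack *Insig2*, and C19, C20 and C21 are controls and KO22, KO23 and KO24 are *Insig1/2Δ/Δ* lungs at E17.5. The deletion of *Scap* or *Insig1* by Cre is limited to epithelial cells, and the authors describe its efficiency as incomplete. The RNA comes from all cells of the lung, and in whole tissue fewer dividing cells and less RNA per cell cannot be told apart. Nothing in the labels says from which litters the lungs came, so p-values measure the spread between these arrays.

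A cell that divides first copies its DNA and then parts the copies. In G1 the loading factors CDC6 and CDT1 place the ring of MCM proteins on origins, cyclin E and E2F1 carry the cell into S phase, and the copying machinery works with deoxynucleotides made by ribonucleotide reductase and thymidylate synthase. The genes of the later part of the cycle encode cyclin A2, the B cyclins and CDK1, the Aurora and Polo kinases, the checkpoint that watches the attachment of chromosomes, and the motors and kinetochore proteins of the spindle. The lung before birth is a growing organ in which epithelium, mesenchyme and endothelium all divide, and growth slows and changes as the tissue matures for air breathing.

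Values are log2 expression, so a difference of 1 is a doubling, and triplets of values are given in the order of the array names above. KO17 and KO18 stand apart: their correlation over all probe sets was 0.9944, each reached only 0.9312 to 0.9599 with the remaining 16 arrays, and those 16 reached 0.9729 to 0.9975. In the *Insig* line C19, C20 and KO22 form one set and C21, KO23 and KO24 another, with correlations of at least 0.9932 within a set and at most 0.9914 between sets. The sets cut across genotype. Results that rest on KO16, KO17 and KO18 or on the *Insig* sets are therefore given by array.

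Mitosis genes were lower in the older lungs. In the control groups all 22 mitosis genes were highest at E17.5, lower at E18.5 and lowest at PN1, with no overlap between arrays at either step. Of the 16 replication genes 14 had means in the same order, but 9 were without overlap between E17.5 and E18.5 and 5 between E18.5 and PN1. The mean over the mitosis genes was 10.07 ± 0.29 (SD, n = 3) at E17.5, 9.18 ± 0.18 at E18.5 and 8.13 ± 0.15 at PN1. The mean over the 6 MCM genes was 9.93 ± 0.33, 9.45 ± 0.14 and 9.38 ± 0.16 in the same groups. The E17.5 controls belong to another line and lack *Insig2*, so stage and line cannot be told apart in the first step, and no test was made across it. The share of all probe sets without overlap was not counted for the first step, so its counts cannot be set against the whole array. The second step lies within the *Scap* line, where 16.5% of all probe sets were lower without overlap.

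**Figure D1:**
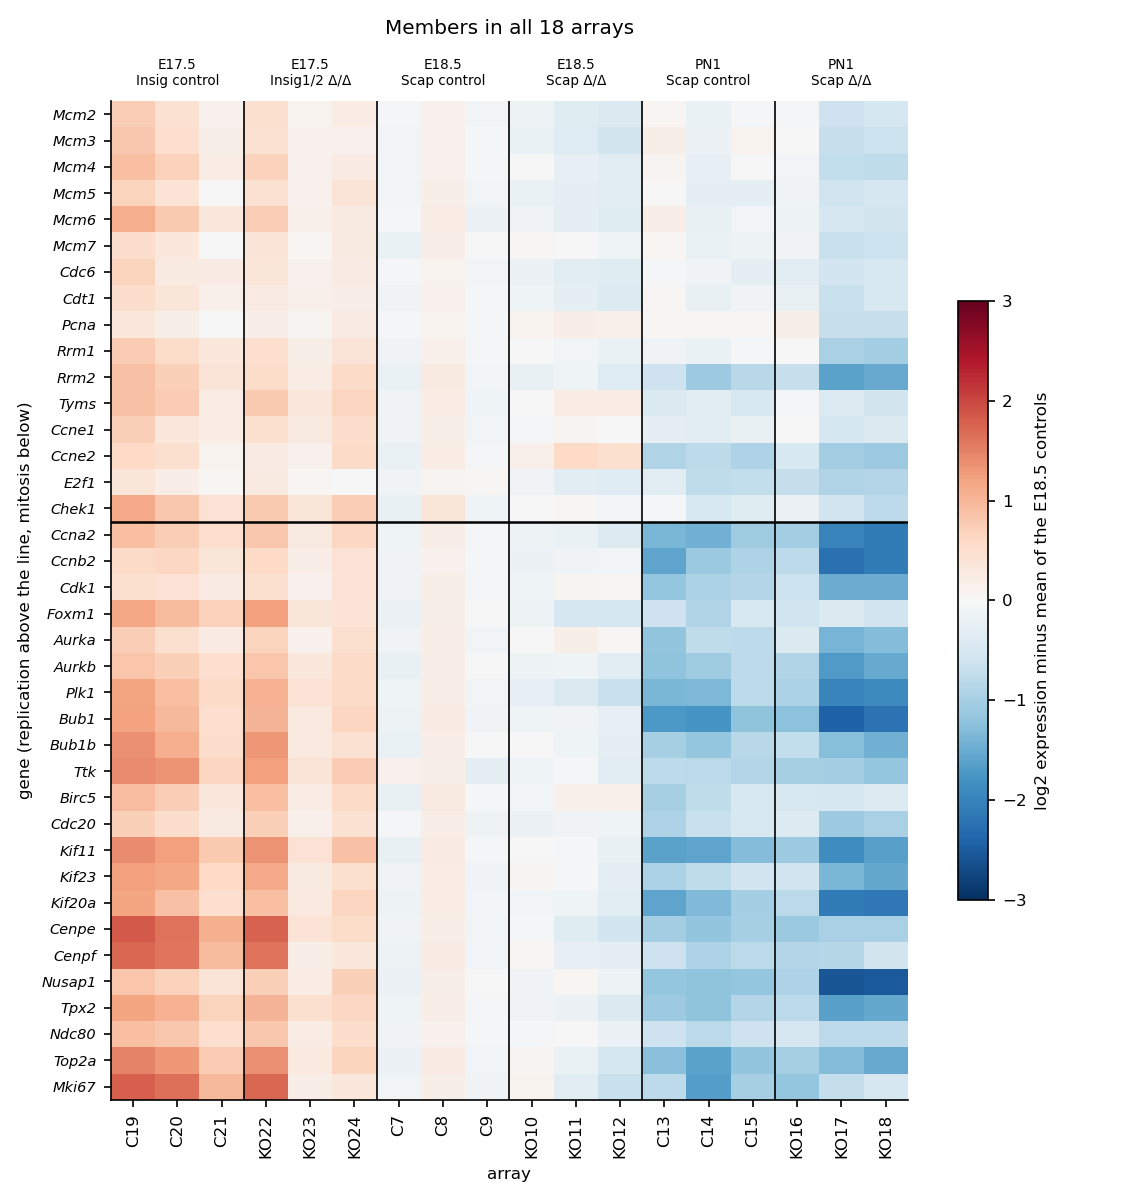
Colour shows log2 expression of each of the 38 genes in each array minus the mean of the 3 E18.5 controls, with replication genes above the black line and mitosis genes below it. E17.5 arrays are red in nearly all rows, the PN1 arrays are blue for the mitosis genes, and the rows of the MCM genes stay pale in C13, C14, C15 and KO16.

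From E18.5 to PN1 in control lungs mitosis genes of every role fell, with changes from -1.56 in *Bub1* to -0.67 in *Foxm1*, while the values of the genes that make and load the replicative helicase overlapped between the ages. The median change of the 22 mitosis genes was -1.04 on the log2 scale, a ratio of 0.487, against 0.01 over all 22800 probe sets tested. Of the 20 that passed the filter on low values 14 passed an adjusted p under 0.05 from limma, all lower, and in all 22 the PN1 controls lay below the E18.5 controls without overlap. Over all probe sets 1.39% passed in this direction and 16.5% were lower without overlap. Of the 16 replication genes *Ccne2* and *E2f1* passed, 5 were lower without overlap and the median was -0.13. Of the 6 MCM genes none passed and none was without overlap, with a median of -0.06. These counts depend on single arrays, and each group holds 3. The 16 calls became 5 without C7, 2 without C8, 3 without C9 and 9 without KO11. They became 8 without C13, 3 without C14, 5 without C15 and 25 without KO16. When each array was left out, the median of the mitosis genes stayed between -1.13 and -0.94. KO16, KO17 and KO18 enter this fit through the estimate of the spread and through the filter on low values. Without all 3 of them *Ttk* and *Cenpe* passed the filter too and all 22 mitosis genes were called, against 5.48% of the 22907 probe sets then tested.

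**Figure D2:**
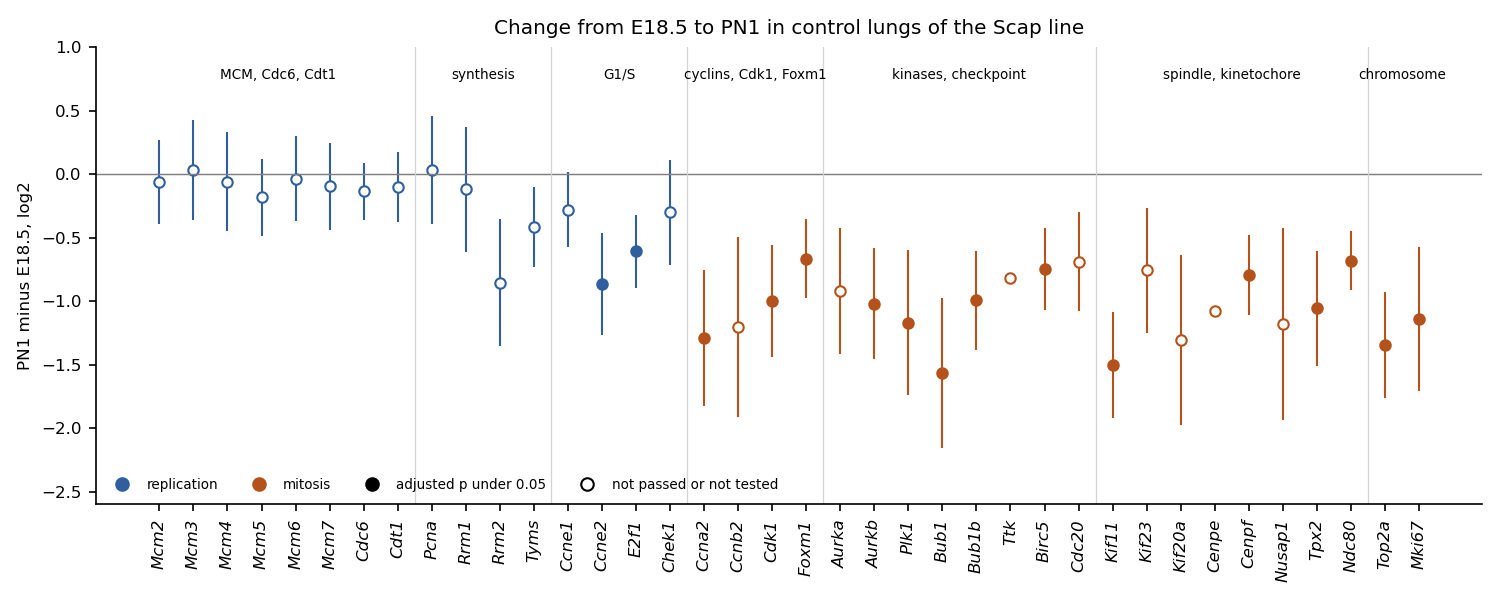
Each point is the difference between the mean of the 3 PN1 controls and the mean of the 3 E18.5 controls on the log2 scale, with its 95% confidence interval from limma, in blue for replication genes and in orange for mitosis genes. Filled points passed an adjusted p under 0.05, and *Ttk* and *Cenpe*, drawn without a bar, were below the filter and not tested. The MCM genes lie at 0 within their intervals and every mitosis gene lies at -0.67 or lower.

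The stretches around the start sites of these genes were searched for short words known from cell cycle promoters. RefSeq promoter windows of GRCm38.p6, from 250 bases before to 50 bases after the start, were given for 14 of the 16 replication genes and for 18 of the 23 mitosis genes. Both strands were searched for the E2F words TTTCCCGC, TTTGGCGC and TTTCGCGC, for TTTGAA and TTCGAA, the core words of the cell cycle genes homology region (CHR) that is known from late cell cycle promoters, and for the CCAAT box. An E2F word was in the windows of 6 replication genes (42.9%: *Mcm3*, *Mcm5*, *Mcm6*, *Mcm7*, *Cdc6* and *Cdt1*) and of 1 mitosis gene (5.56%: *Cdk1*), and in 2.12% of the windows of all 27025 genes. A CHR word was in the windows of 14 mitosis genes (77.8%) and of 2 replication genes (14.3%: *Mcm2*, which has no E2F word, and *Mcm7*), and in 21.7% of all. Of the 7 windows of the MCM genes, *Cdc6* and *Cdt1*, 85.7% hold an E2F word and 28.6% a CHR word. CCAAT was in 83.3% of the windows of the mitosis genes and in 57.1% of those of the replication genes, against 41.1% of all. The words are short, a match is not a bound site, and no binding was measured in these lungs. The sequences below are stretches of the gene strand, with E2F words in capitals in the first 2. They are shown for a choice of genes that hold such words, not ranked by the size of their change. In *Mcm5* (chr8:75109339-75109508, plus strand) and *Mcm6* (chr1:128359706-128359835, minus strand) words on both strands run into each other to form a near palindrome.
Mcm5: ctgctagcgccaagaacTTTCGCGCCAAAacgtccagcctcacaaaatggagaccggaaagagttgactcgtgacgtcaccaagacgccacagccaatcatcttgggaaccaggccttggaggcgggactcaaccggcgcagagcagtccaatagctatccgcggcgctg
Mcm6: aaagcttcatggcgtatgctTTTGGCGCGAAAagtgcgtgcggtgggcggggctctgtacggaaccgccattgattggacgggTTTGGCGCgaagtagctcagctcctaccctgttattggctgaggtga
The promoter of *Cdk1* (chr10:69352913-69353052, minus strand) holds both kinds of word, and that of *Top2a* (chr11:99024190-99024389, minus strand) holds 4 CHR words among its CCAAT boxes. The capitals mark E2F and CHR words in *Cdk1* and CHR words in all that follow, where TTCAAA is the CHR word read on the other strand.
Cdk1: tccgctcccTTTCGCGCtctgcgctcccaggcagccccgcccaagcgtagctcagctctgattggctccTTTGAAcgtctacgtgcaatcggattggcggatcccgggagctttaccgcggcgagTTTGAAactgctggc
Top2a: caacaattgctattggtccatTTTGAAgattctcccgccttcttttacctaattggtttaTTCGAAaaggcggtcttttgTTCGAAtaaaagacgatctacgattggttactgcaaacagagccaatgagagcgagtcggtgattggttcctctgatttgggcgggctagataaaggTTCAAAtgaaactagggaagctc
The CHR words of *Mki67* (chr7:135716460-135716509, minus strand) stand close together, and those of *Cdc20* (chr4:118437344-118437413, minus strand) and *Kif11* (chr19:37376322-37376381, plus strand) lie just before the start.
Mki67: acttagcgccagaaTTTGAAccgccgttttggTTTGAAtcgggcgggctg
Cdc20: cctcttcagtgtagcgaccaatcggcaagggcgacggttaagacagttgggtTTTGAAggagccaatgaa
Kif11: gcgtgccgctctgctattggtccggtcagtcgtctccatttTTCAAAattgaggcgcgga
In *Cenpf* (chr1:189688077-189688106, minus strand), *Kif23* (chr9:61946790-61946819, minus strand) and *Ccnb2* (chr9:70421545-70421574, minus strand) the word begins within the first bases of the transcript.
Cenpf: gaggggcggcggcggcgggcagTTTGAAtc
Kif23: caggcggccgctgattggcctgTTTGAAat
Ccnb2: caatagtgcgtcagcggcgcggtaTTTGAA

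In each of the loading and helicase genes the E18.5 and PN1 controls overlapped. *Mcm2* was at 9.56, 9.77 and 9.55 in the E18.5 controls and at 9.70, 9.43 and 9.57 in the PN1 controls, a difference of -0.06 with a 95% interval from -0.39 to 0.27. *Mcm5* was at 9.78, 10.04 and 9.79 and at 9.87, 9.59 and 9.60, with an interval from -0.49 to 0.12. *Mcm6* was at 9.21, 9.49 and 9.09 and at 9.46, 9.04 and 9.18, with an interval from -0.37 to 0.30. In each of the 3 genes the triplets of the 2 ages overlap, and the intervals leave out a fall as large as that of the median mitosis gene. *Mcm3* was at 8.76, 8.98 and 8.78 and then at 9.02, 8.66 and 8.94, *Mcm4* at 9.25, 9.45 and 9.27 and then at 9.41, 9.07 and 9.30. *Mcm7* was at 9.56, 9.95 and 9.74 and then at 9.80, 9.56 and 9.60. C8 was the highest E18.5 control in all 6 subunits, and C14 was the lowest PN1 control. *Cdc6*, which opens the way for the helicase, was at 7.45, 7.60 and 7.41 and then at 7.47, 7.39 and 7.21. *Cdt1*, its partner in loading, was at 9.06, 9.29 and 9.12 and then at 9.19, 8.94 and 9.04. Their intervals ran from -0.36 to 0.09 and from -0.38 to 0.18.

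Genes of DNA synthesis were divided. *Pcna*, the sliding clamp of the polymerases, was at 11.27, 11.44 and 11.27 and at 11.36, 11.35 and 11.36, and *Rrm1*, the large subunit of ribonucleotide reductase, was at 10.70, 10.96 and 10.76 and at 10.71, 10.61 and 10.74. Both pairs of triplets overlap. *Rrm2*, the small subunit, whose protein is made in S phase and removed in mitosis, was at 9.32, 9.78 and 9.44 at E18.5 and at 8.88, 8.42 and 8.68 at PN1, a difference of -0.85 that did not pass (adjusted p = 0.083 from limma). *Tyms*, thymidylate synthase, was at 8.95, 9.29 and 8.94 and at 8.63, 8.74 and 8.57, with a difference of -0.42 (adjusted p = 0.195 from limma). In *Rrm2* and *Tyms* all PN1 controls were below all E18.5 controls, so the 2 subunits of one enzyme differed in whether the controls of the 2 ages overlap.

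The regulators of the G1 to S step held the replication genes that passed. No replication gene passed with no filter on low values or with each array centred on its median. None passed without C7, C8, C9, KO11, KO12, C14 or C15, each left out alone. *Ccne2* was at 8.73, 9.14 and 8.89 in the E18.5 controls and at 8.03, 8.14 and 7.98 in the PN1 controls, a fall of -0.87 (adjusted p = 0.0344 from limma). *E2f1*, a transcription factor of replication genes, went from 9.16, 9.33 and 9.29 to 8.94, 8.49 and 8.52, a fall of -0.61 (adjusted p = 0.0353 from limma). The groups do not overlap in either gene. *Ccne1*, the other E cyclin, was at 8.54, 8.83 and 8.57 and at 8.36, 8.31 and 8.43 (difference -0.28, adjusted p = 0.412 from limma). *Chek1*, a kinase that guards the replicating genome, was at 7.91, 8.50 and 8.02 and at 8.09, 7.66 and 7.77, and its triplets overlap.

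*Ccna2*, *Cdk1* and *Foxm1* fell, and *Ccnb2* did not pass. *Ccna2*, cyclin A2, was at 10.53, 10.86 and 10.60 at E18.5 and at 9.29, 9.23 and 9.60 at PN1, and fell by 1.29 (adjusted p = 0.0214 from limma). *Cdk1* was at 10.90, 11.18 and 10.96 and at 9.84, 10.06 and 10.13, and fell by 1.0 (adjusted p = 0.0287 from limma). In both genes the ages stand apart, and C15 was the highest PN1 control. *Foxm1*, a transcription factor of late cell cycle genes, was at 8.14, 8.49 and 8.31 and at 7.68, 7.41 and 7.84, and fell by 0.67 (adjusted p = 0.0353 from limma), the smallest change of the 22. *Ccnb2*, cyclin B2, was at 11.26, 11.49 and 11.32 and at 9.77, 10.25 and 10.44; its difference of -1.21 did not pass (adjusted p = 0.0834 from limma), and its 95% interval, from -1.91 to -0.50, was among the wider ones. C13 was the lowest of the 3 PN1 controls in *Ccnb2* and *Cdk1*.

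Mitotic kinases and the spindle checkpoint held the largest fall of the 22. *Bub1*, a checkpoint kinase at the kinetochore, was at 8.93, 9.30 and 8.97 and at 7.34, 7.30 and 7.87, and fell by 1.56 (adjusted p = 0.0141 from limma), a ratio of 0.338. Its relative *Bub1b* was at 8.44, 8.85 and 8.65 and at 7.66, 7.50 and 7.81, and fell by 0.99 (adjusted p = 0.0162 from limma). *Plk1*, the Polo kinase of mitotic entry and exit, was at 9.57, 9.89 and 9.60 and at 8.32, 8.34 and 8.89, and fell by 1.17 (adjusted p = 0.0432 from limma). All 3 passed, and in each the PN1 controls lay wholly below the E18.5 controls. *Aurkb*, the kinase of the chromosomal passenger complex, was at 10.18, 10.59 and 10.41 and at 9.18, 9.32 and 9.61. *Birc5*, survivin, a partner of AURKB in that complex, was at 7.71, 8.19 and 7.89 and at 6.93, 7.16 and 7.45. They fell by 1.02 and 0.75 with adjusted p of 0.0245 and 0.0273 from limma. *Aurka*, the kinase of the centrosomes, was at 8.78, 9.10 and 8.81 and at 7.71, 8.13 and 8.11, and *Cdc20*, which starts the removal of cyclin B, was at 9.01, 9.28 and 8.92 and at 8.15, 8.40 and 8.59. Neither passed, with differences of -0.92 (adjusted p = 0.0612 from limma) and -0.69 (adjusted p = 0.0735 from limma). *Ttk*, the kinase that starts the checkpoint, was too dim for the filter, at 7.34, 7.39 and 6.94 and 6.44, 6.42 and 6.35.

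Of the spindle genes *Kif11*, the motor that pushes the poles apart, had the lowest adjusted p among all members. It was at 9.15, 9.62 and 9.33 in the E18.5 controls and at 7.76, 7.78 and 8.06 in the PN1 controls, and fell by 1.50 (adjusted p = 0.00388 from limma). *Tpx2*, which nucleates spindle microtubules, was at 8.82, 9.16 and 8.89 and at 7.86, 7.75 and 8.09. *Ndc80*, which holds microtubules at the kinetochore, was at 7.65, 7.89 and 7.73 and at 7.14, 6.94 and 7.14. *Tpx2* fell by 1.06 (adjusted p = 0.0245 from limma) and *Ndc80* by 0.68 (adjusted p = 0.00919 from limma), the smaller change with the narrower spread. *Cenpf*, a large kinetochore protein, was at 7.78, 8.17 and 7.83 and at 7.30, 6.99 and 7.11, and fell by 0.79 (adjusted p = 0.0169 from limma). *Nusap1*, which bundles spindle microtubules, was at 9.90, 10.24 and 10.06 and at 8.90, 8.85 and 8.90. *Kif20a*, a motor of cytokinesis, was at 9.11, 9.50 and 9.20 and at 7.69, 7.94 and 8.26. Neither passed (adjusted p = 0.114 and 0.0511 from limma), though the ages stand apart without overlap. *Kif23*, the other motor of cytokinesis, was at 9.07, 9.39 and 9.08 and at 8.23, 8.43 and 8.61 (difference -0.76, adjusted p = 0.121 from limma). The kinetochore motor *Cenpe* was below the filter, at 7.45, 7.74 and 7.46 and 6.50, 6.36 and 6.55.

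The 2 mitosis genes that remain, *Mki67* and *Top2a*, fell as well. *Mki67*, which encodes the Ki-67 antigen, was at 9.66, 9.92 and 9.64 at E18.5 and at 8.96, 8.10 and 8.75 at PN1, and fell by 1.14 (adjusted p = 0.0452 from limma). *Top2a*, the topoisomerase that untangles sister chromatids, was at 9.63, 10.04 and 9.72 and at 8.55, 8.20 and 8.60, and fell by 1.35 (adjusted p = 0.00664 from limma), a ratio of 0.393. C14 was the lowest control in both.

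Lists of further cell cycle genes were drawn up from textbook knowledge, also with earlier results of these data known. Of 25 other mitosis genes all were below 0 from E18.5 to PN1 in controls, where 47.9% of all probe sets were, with a median of -0.87. Of these, 24 were lower without overlap, against 16.5% of all probe sets, and 15 of the 23 tested passed, against 1.39%. *Kif2c*, *Kif4*, *Kif15*, *Prc1*, *Anln*, *Cenpa*, *Spc25*, *Sgo1*, *Cdca8*, *Incenp*, *Ube2c*, *Cdc25c*, *Pbk*, *Melk* and *Ckap2* fell. Of the largest changes *Hmmr* (-1.51) was below the filter, and *Prc1*, which bundles the central spindle, changed by -1.39 and *Kif2c*, a kinesin that takes microtubules apart, by -1.32. Another 20 replication genes included those for the polymerases, the GINS complex and the clamp loader. Here 9 were lower without overlap, against 16.5% of all probe sets, and none of the 19 tested passed, against 1.39%. Their median was -0.20, and *Pola1* changed most (-0.48, adjusted p = 0.0684 from limma). Of 11 genes of cycle entry *Ccnd2*, cyclin D2, passed and rose by 0.53 (adjusted p = 0.0262 from limma), with a median of -0.04 over the list. In either direction 2.58% of all probe sets passed. Of 14 genes that brake the cycle none passed, with a median of -0.15 and *Cdkn2c* lowest at -0.60 (adjusted p = 0.107 from limma). Marker lists of the cells of the lung moved less than the mitosis genes: the medians were -0.03 for 10 genes of type II epithelium, 0.04 for 10 of endothelium, -0.16 for 9 of fibroblasts, 0.18 for 9 of macrophages, 0.26 for 5 of erythroid cells, 0.08 for 9 of the thymus and 0.40 for 10 of cardiac muscle. Over all 18 arrays the mean of the list ran from 11.51 to 12.18 for type II epithelium, from 11.42 to 11.84 for endothelium and from 10.66 to 11.46 for fibroblasts, from 9.35 to 11.50 for cardiac muscle and from 6.07 to 6.39 for the thymus. Probe sets of different genes differ in brightness, so these ranges do not rank the cell types. Their part in the result was not tested.

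In *ScapΔ/Δ* lungs at E18.5 the loading and helicase genes lay lower than in controls, by a small amount and without a call. The 6 MCM genes, *Cdc6* and *Cdt1* all had negative differences, with a median of -0.27, and 5 of these 8 were lower in all deleted arrays than in any control array. With *E2f1* this makes 6 of the 16 replication genes, against 21% of all probe sets tested at this age, where the median was -0.04. None of the members tested passed an adjusted p under 0.05 from limma, where 0.00877% of all probe sets did. *Ttk* and *Cenpe* were below the filter and not tested in this fit. At an unadjusted p under 0.05 *Cdc6* and *Foxm1* were lower, against 4.85% of all probe sets, and *Ccne2* was higher, against 4.39%. Differences were negative in 12 of the 16 replication genes (median -0.22) and in 19 of the 22 mitosis genes (median -0.16), against 58.3% of all probe sets, and 2 mitosis genes were without overlap. The medians stayed below 0 without any one array, between -0.27 and -0.12 for the replication genes and between -0.23 and -0.05 for the mitosis genes.

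Single values show how small the step was. *Mcm2* was at 9.56, 9.77 and 9.55 in controls and at 9.48, 9.27 and 9.19 in *ScapΔ/Δ* lungs, a difference of -0.32 ± 0.15 (SE, adjusted p = 0.551 from limma). *Mcm3* was at 8.76, 8.98 and 8.78 and at 8.64, 8.45 and 8.30, the lowest of the replication genes by difference, at -0.38 (adjusted p = 0.552 from limma). *Mcm5* was at 9.78, 10.04 and 9.79 and at 9.67, 9.59 and 9.54. In these 3 the deleted lungs lay wholly below the controls, with KO12 lowest and KO10 nearest to them. *Cdc6* was at 7.45, 7.60 and 7.41 and at 7.32, 7.16 and 7.12, a difference of -0.29 with an interval from -0.51 to -0.06 and an adjusted p of 0.511 from limma. *Cdt1* was at 9.06, 9.29 and 9.12 and at 9.02, 8.89 and 8.75. *E2f1* was at 9.16, 9.33 and 9.29 and at 9.15, 8.95 and 8.87. The gap was narrow in *E2f1*, where KO10 fell just short of C7. In *Mcm6*, at 9.15, 8.98 and 8.91 in the deleted lungs, and *Mcm4*, at 9.30, 9.08 and 9.01, KO10 lay within the controls. *Mcm7* was at 9.79, 9.76 and 9.61, within the range of its controls.

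*Ccne2* went the other way. It was at 8.73, 9.14 and 8.89 in controls and at 9.06, 9.51 and 9.39 in *ScapΔ/Δ* lungs, a difference of 0.40 with an interval from 0.00 to 0.81 (adjusted p = 0.541 from limma), and KO10 lay within the range of the controls. *Pcna* was at 11.42, 11.52 and 11.49 in the deleted lungs, with a difference of 0.15, and *Tyms* at 9.05, 9.28 and 9.29, with a difference of 0.14. *Rrm1* was at 10.79, 10.73 and 10.62 and *Rrm2* at 9.30, 9.38 and 9.13. *Ccne1* was at 8.61, 8.73 and 8.64 and *Chek1* at 8.16, 8.18 and 8.06. All 6 overlap with their controls, so the replication genes did not move as one block at this age.

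Among the mitosis genes *Plk1* had the largest difference. It was at 9.57, 9.89 and 9.60 in controls and at 9.43, 9.25 and 9.02 in *ScapΔ/Δ* lungs, a difference of -0.45 with an interval from -1.03 to 0.12 (adjusted p = 0.581 from limma). *Foxm1* was at 8.17, 7.82 and 7.79 against 8.14, 8.49 and 8.31, a difference of -0.39 in which KO10 overlaps the controls. *Ccna2*, at 10.52, 10.47 and 10.26, was the other gene without overlap, by the margin between KO10 and C7. *Mki67* was at 9.84, 9.41 and 9.07 and *Top2a* at 9.89, 9.60 and 9.28. KO12 was the lowest array and KO10 the highest in both, and KO10 lay within the controls. *Cdk1* was at 10.89, 11.08 and 11.08, with a difference of 0.01 and an interval from -0.43 to 0.45. *Aurka* was at 8.89, 9.07 and 8.93 and *Birc5* at 7.85, 8.08 and 8.09, with differences of 0.06 and 0.08. *Ccnb2* was at 11.18, 11.25 and 11.27 and *Aurkb* at 10.24, 10.26 and 10.04. In these 5 genes the deleted lungs and the controls overlap. *Bub1* was at 8.94, 8.96 and 8.82 and *Bub1b* at 8.67, 8.52 and 8.39. *Cdc20* was at 8.89, 8.96 and 8.95 and *Kif11* at 9.37, 9.31 and 9.15. *Cenpf* was at 7.98, 7.67 and 7.66 and *Cenpe*, not tested, at 7.48, 7.17 and 6.98. All of these overlap with their controls, *Cenpf* and *Cenpe* through KO10 alone. *Tpx2* was at 8.86, 8.78 and 8.52, *Ndc80* at 7.71, 7.74 and 7.58 and *Nusap1* at 9.97, 10.12 and 9.92. *Kif20a* was at 9.19, 9.13 and 8.95 and *Kif23* at 9.25, 9.12 and 8.88. The mean over the mitosis genes was -0.07 relative to controls in KO10, -0.13 in KO11 and -0.29 in KO12.

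Other lists at E18.5 were mixed. All 11 genes of cycle entry were below 0, where 58.3% of all probe sets were, and 6 were lower without overlap, against 21%. Their median was -0.17, and *Ccnd1*, cyclin D1, had the largest difference at -0.34 (adjusted p = 0.511 from limma). Of the 14 brakes 11 were above 0, with a median of 0.05 and *Gadd45a* highest at 0.34 (adjusted p = 0.511 from limma). The 20 other replication genes had a median of 0.01, from -0.42 in *Uhrf1* to 0.40 in *Gmnn*, which encodes the inhibitor of CDT1 and was below the filter. The 25 other mitosis genes had a median of -0.07. None of these genes passed. Type II cell markers had a median of -0.11, and the list mean was 11.97 ± 0.04 (SD, n = 3) in deleted lungs and 12.15 ± 0.02 in controls; its part in the difference of the members was not tested.

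**Figure D3:**
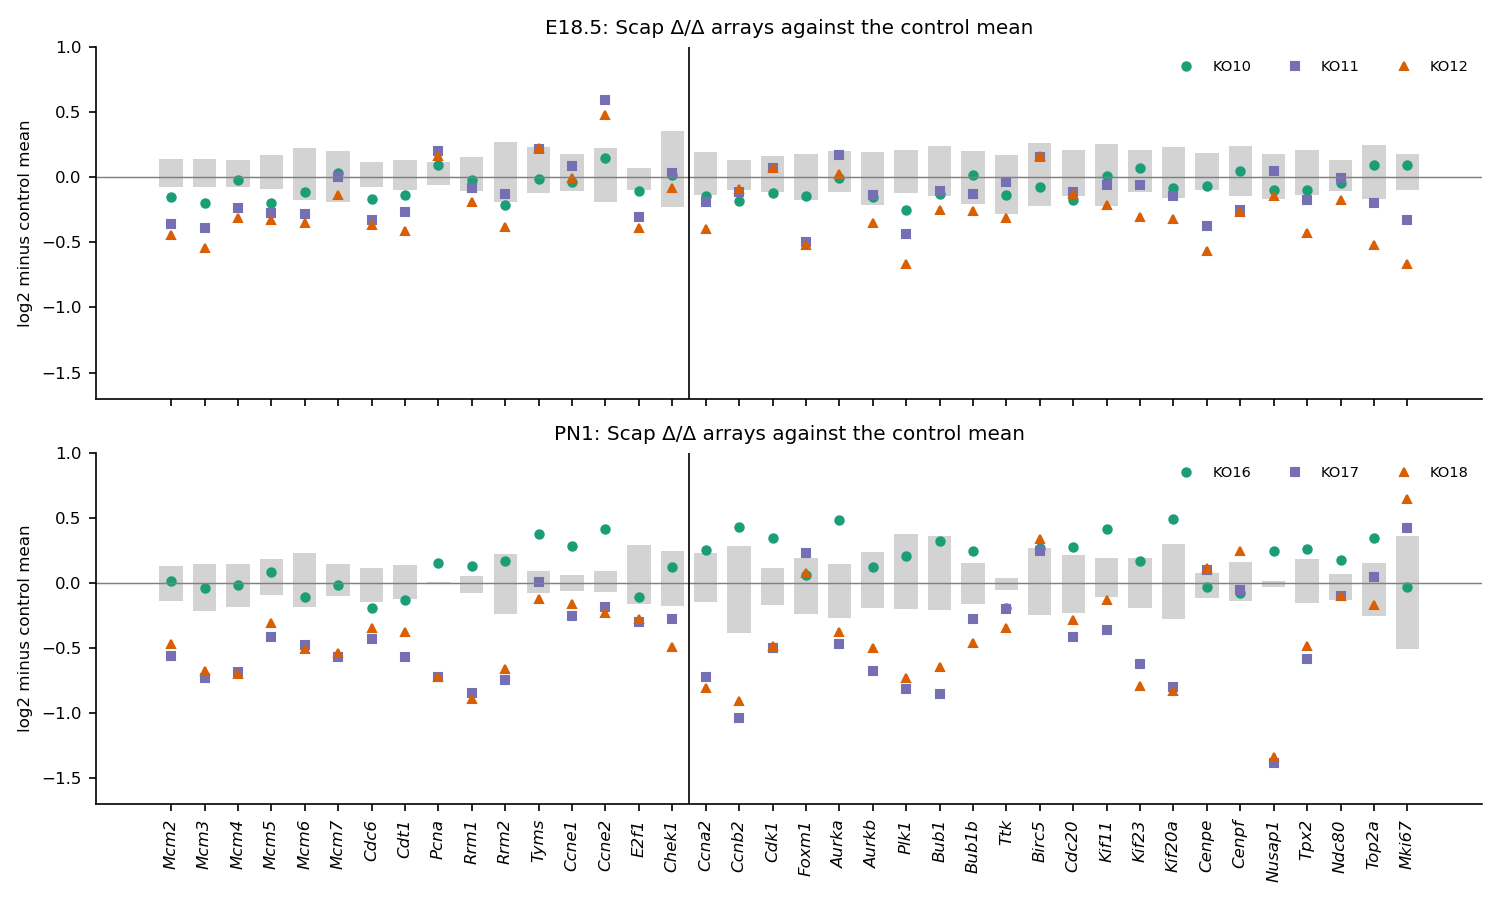
Points are log2 expression of single *ScapΔ/Δ* arrays minus the mean of the 3 controls of the same age, at E18.5 above and at PN1 below, and grey bars span the controls. At E18.5 the points of the MCM genes, *Cdc6* and *Cdt1* lie mostly under the bars, and at PN1 KO17 and KO18 lie far below KO16 in most genes but not in *Mki67*, *Foxm1*, *Cenpf* and *Birc5*.

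At PN1 KO16 and the other 2 *ScapΔ/Δ* arrays went different ways, so the group has no common level. Relative to the control mean the replication genes were at 0.07 in KO16, -0.48 in KO17 and -0.47 in KO18, and the mitosis genes at 0.22, -0.40 and -0.36. The median difference was -0.35 for the replication genes, 14 of 16 of them negative, and -0.19 for the mitosis genes, 16 of 22, against -0.06 and 57.9% over all probe sets; with each array centred on its median these medians were -0.48, -0.32 and, over all probe sets, -0.19. None of the members tested, which leave out *Ttk* and *Cenpe*, passed an adjusted p under 0.05 from limma, where 0.00877% of all probe sets did. At an unadjusted p under 0.05, 9 replication genes and 1 mitosis gene were lower, against 20.8% of all probe sets. Without KO16, 24 members were called lower, but so were 37.8% of all probe sets. Without KO17 and KO18 none was called and the medians were 0.05 and 0.25. *Cdc6*, *Cdt1* and *Ttk* were lower in all 3 deleted arrays than in any control, against 11% of all probe sets.

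The split between arrays was clear in some genes of synthesis. *Pcna* was at 11.36, 11.35 and 11.36 in controls and at 11.51, 10.64 and 10.63 in *ScapΔ/Δ* lungs. *Rrm1* was at 10.71, 10.61 and 10.74 and at 10.82, 9.84 and 9.80. *Rrm2* was at 8.83, 7.92 and 8.0, against 8.88, 8.42 and 8.68 in controls. In all 3 KO16 was at or above the middle of the controls while KO17 and KO18 were below their range. In the MCM genes KO16 lay within the range of the controls, and KO17 and KO18 lay below it. In the deleted lungs *Mcm2* was at 9.58, 9.01 and 9.10, *Mcm5* at 9.77, 9.27 and 9.38 and *Mcm6* at 9.12, 8.75 and 8.72. *Mcm3* was at 8.83, 8.15 and 8.20, *Mcm4* at 9.25, 8.57 and 8.56 and *Mcm7* at 9.64, 9.09 and 9.12. *Cdc6* was at 7.47, 7.39 and 7.21 in controls and at 7.16, 6.92 and 7.01 in deleted lungs, and *Cdt1* at 9.19, 8.94 and 9.04 and 8.93, 8.49 and 8.68. Here KO16 too lay below the controls, by a narrow margin. Their differences were -0.32 (adjusted p = 0.0918 from limma) and -0.36 (adjusted p = 0.102 from limma). *Tyms* was at 9.02, 8.66 and 8.52, *Ccne1* at 8.65, 8.12 and 8.20 and *Ccne2* at 8.47, 7.87 and 7.82. In these KO16 was above all controls, and in *Tyms* KO17 and KO18 were near them. *E2f1* was at 8.54, 8.35 and 8.38 and *Chek1* at 7.97, 7.56 and 7.35.

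Mitosis genes in KO17 and KO18 did not share one direction. *Nusap1* was at 8.90, 8.85 and 8.90 in controls and at 9.13, 7.50 and 7.55 in deleted lungs, the largest difference among the members at -0.82 (adjusted p = 0.133 from limma). *Ccnb2* was at 10.58, 9.12 and 9.25, *Ccna2* at 9.62, 8.65 and 8.57 and *Cdk1* at 10.36, 9.51 and 9.53. *Bub1* was at 7.83, 6.65 and 6.86, *Plk1* at 8.73, 7.70 and 7.79 and *Aurkb* at 9.50, 8.70 and 8.87. In all 7 genes KO17 and KO18 were below every control. By contrast *Mki67* was at 8.96, 8.10 and 8.75 in controls and at 8.57, 9.02 and 9.25 in deleted lungs, so KO17 and KO18 were the highest arrays of their age. *Birc5* was at 7.45, 7.43 and 7.51, *Foxm1* at 7.70, 7.87 and 7.72 and *Cenpf* at 7.05, 7.08 and 7.38. *Top2a* was at 8.80, 8.49 and 8.29 and *Cenpe* at 6.44, 6.57 and 6.58. In these 5 at least one of KO17 and KO18 lay within or above the controls. *Aurka* was at 8.46, 7.51 and 7.61, *Cdc20* at 8.66, 7.97 and 8.10 and *Bub1b* at 7.91, 7.38 and 7.20. *Kif11* was at 8.28, 7.50 and 7.73, *Tpx2* at 8.16, 7.32 and 7.41 and *Kif20a* at 8.45, 7.16 and 7.13. *Kif23* was at 8.59, 7.80 and 7.64, *Ndc80* at 7.25, 6.97 and 6.97 and *Ttk* at 6.22, 6.21 and 6.06. In all 9 genes KO16 lay above KO17 and KO18.

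Other lists moved with the arrays too. All 14 brakes were below 0 at PN1, where 57.9% of all probe sets were, with a median of -0.29. The 11 genes of cycle entry had a median of -0.22. Type II markers had a median of -0.37, macrophage markers -0.26 and erythroid markers -0.40. The mean of the macrophage list ran from 8.78 to 9.43 in deleted lungs, against 9.44 to 9.60 in controls. Their part in the differences of the members was not tested.

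The change from E18.5 to PN1 was also seen in *ScapΔ/Δ* lungs. The median of the mitosis genes was -1.08, 18 of the 20 tested passed and 20 of 22 were lower without overlap, and the median of the replication genes was -0.39 with 6 called. Over all probe sets 20.1% passed in this direction and 17.3% were lower without overlap, so far more of the array was called than in controls. *Mki67* (-0.49, adjusted p = 0.137 from limma) and *Foxm1* (-0.16, adjusted p = 0.367 from limma) did not pass. The count of 24 members was 15 without KO17 and 16 without KO18, and 7 without both, where the median of the mitosis genes was -0.66 and that of the replication genes 0.01. The test of the difference between the effects of the deletion at PN1 and at E18.5 called no member and 0% of all probe sets from limma, while at an unadjusted p under 0.05 *Foxm1* was higher (difference 0.51, adjusted p = 0.265 from limma) and no member was lower, against 8.25% and 10.1% of all probe sets. The controls of each age serve both the stage comparison and the comparison of genotypes, so these values are given side by side and not as separate lines of evidence.

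**Figure D4:**
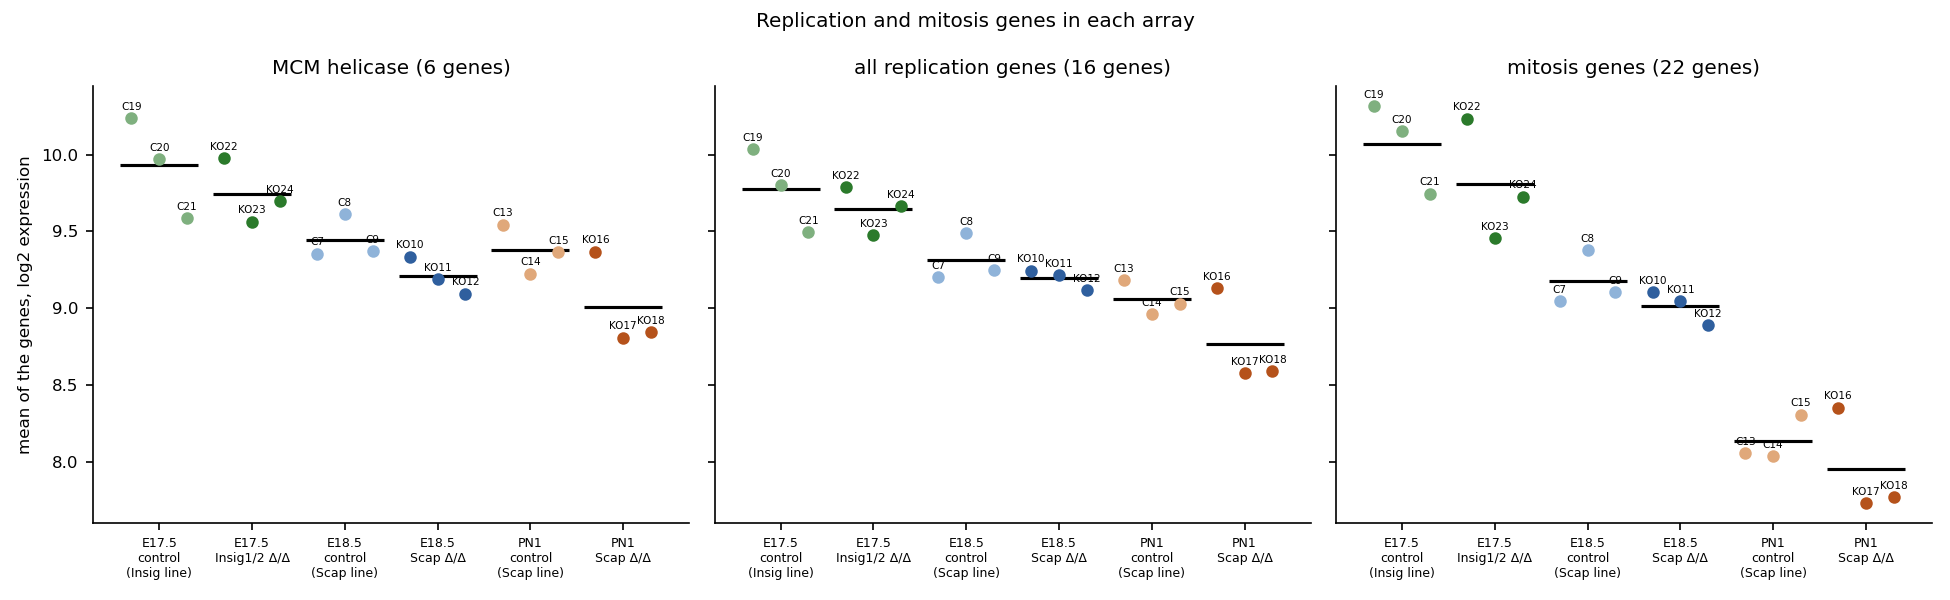
Each point is the mean log2 expression of a list in 1 array, for the 6 MCM genes, the 16 replication genes and the 22 mitosis genes, and black lines are group means of 3 arrays. The mitosis genes drop from E18.5 to PN1 while the MCM genes of C13, C14, C15 and KO16 stay level with the E18.5 arrays, and C21, KO23 and KO24 lie below C19, C20 and KO22.

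In the *Insig* line at E17.5 no member was called between the genotypes, and most members differed between the sets of arrays. Of the 38 members 36 were below 0 in *Insig1/2Δ/Δ* lungs, where 45.5% of all probe sets were, with medians of -0.15 for the replication genes and -0.24 for the mitosis genes against 0.01 over all 22775 probe sets. None passed an adjusted p under 0.05 from limma, where 0% of all probe sets did, none was under an unadjusted p of 0.05 either (1.9% of all probe sets were lower and 2.2% higher), and none was without overlap in this direction, against 4.22%. Between the sets 12 of 16 replication genes and 20 of 22 mitosis genes were higher in C19, C20 and KO22 than in C21, KO23 and KO24 without overlap, against 20.3% of all probe sets, with median differences of 0.32 and 0.52. Within the first set KO22 differed from C19 and C20 by a median of -0.12 in the replication genes, where all 16 were lower, while 12 of the 22 mitosis genes were lower, against 12159 of the 22775 probe sets. Within the second set KO23 and KO24 differed from C21 by a median of 0.03 in the replication genes, where 5 of 16 were lower, and of -0.07 in the mitosis genes, where 17 of 22 were lower, against 9992 of the 22775 probe sets. The largest of these were -0.71 in *Mki67* and -0.70 in *Cenpf*. With the set as a block in the fit the medians of the genotype difference were -0.03 and -0.05. The sets were seen in the arrays and not given by the labels, so their difference is a description. C21 also had a list mean of cardiac muscle markers of 11.50 against 9.35 to 10.06 in the other 5 arrays, and its part was not tested.

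*Mki67* had the widest gap between the sets. It was at 11.53, 11.39 and 10.72 in controls and at 11.46, 9.94 and 10.07 in *Insig1/2Δ/Δ* lungs, so KO22 stood with C19 and C20, and the difference of -0.72 had an interval from -1.77 to 0.33. *Cenpf* was at 9.66, 9.53 and 8.88 and at 9.55, 8.13 and 8.24, also with a difference of -0.72. *Cenpe* was at 9.38, 9.18 and 8.60 and at 9.31, 7.97 and 8.10. In all 3 genes C21 fell between its set and the other controls. *Top2a* was at 11.29, 11.10 and 10.56 and at 11.18, 10.08 and 10.47. *Kif11* was at 10.78, 10.59 and 10.15 and at 10.71, 9.80 and 10.25. *Foxm1* was at 9.46, 9.27 and 9.0 and at 9.54, 8.67 and 8.72, with KO22 the highest array. The cyclins and *Cdk1* spread less. *Cdk1* was at 11.49, 11.44 and 11.25 and at 11.49, 11.15 and 11.41, with a difference of -0.04 and an interval from -0.32 to 0.23. *Ccnb2* was at 11.94, 11.97 and 11.73 and at 11.96, 11.56 and 11.79, and *Ccna2* at 11.56, 11.40 and 11.16 and 11.46, 10.92 and 11.28. In *Cdk1* KO24 lay near the first set.

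**Figure D5:**
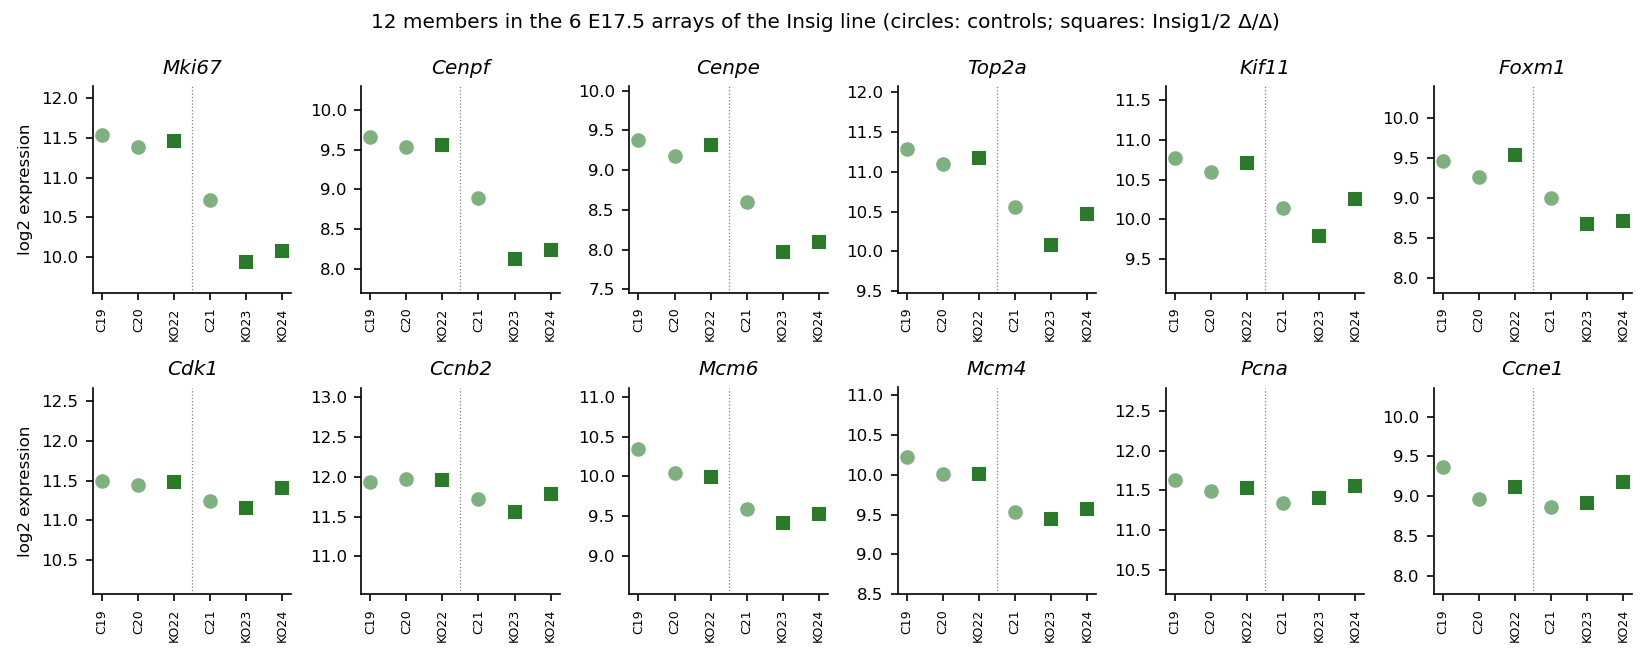
Points are log2 expression in single arrays of the *Insig* line for 12 genes, circles for controls and squares for *Insig1/2Δ/Δ* lungs, with the sets C19, C20, KO22 and C21, KO23, KO24 on either side of the dotted line and an equal span on each axis. *Mki67*, *Cenpf* and *Cenpe* step down at the line by more than *Cdk1*, *Pcna* and *Ccne1*.

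Among the kinases and checkpoint genes C21 lay above KO24 in some and below it in others. *Plk1* was at 10.87, 10.60 and 10.25 and at 10.73, 10.11 and 10.26, *Bub1* at 10.27, 10.03 and 9.57 and 10.08, 9.36 and 9.70. *Bub1b* was at 10.02, 9.74 and 9.18 and at 9.96, 8.94 and 9.11. *Aurka* was at 9.63, 9.37 and 9.14 and at 9.57, 9.03 and 9.39, and here KO24 lay above C20. *Aurkb* was at 11.24, 11.12 and 10.89 and at 11.24, 10.70 and 10.97, and *Birc5* at 8.86, 8.67 and 8.24 and 8.84, 8.15 and 8.50. *Cdc20* was at 9.79, 9.59 and 9.33 and at 9.79, 9.22 and 9.52. *Tpx2* was at 10.13, 9.99 and 9.62 and at 9.98, 9.43 and 9.58. KO23 was the lowest of the 6 arrays in all of these. *Kif23* was at 10.41, 10.35 and 9.78 and at 10.33, 9.45 and 9.66, and *Ttk* at 8.64, 8.57 and 7.86 and 8.44, 7.60 and 7.97. *Ndc80* was at 8.66, 8.55 and 8.26 and at 8.55, 7.97 and 8.29, *Kif20a* at 10.46, 10.14 and 9.78 and 10.18, 9.56 and 9.91. *Nusap1* was at 10.90, 10.77 and 10.45 and at 10.79, 10.30 and 10.79, where KO24 lay in the first set.

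Of the replication genes *Mcm6* differed most, at 10.35, 10.04 and 9.59 in controls and 9.99, 9.41 and 9.53 in *Insig1/2Δ/Δ* lungs, a difference of -0.35 with an interval from -0.90 to 0.21. *Mcm2* was at 10.37, 10.08 and 9.75 and at 10.11, 9.73 and 9.85, and *Mcm5* at 10.55, 10.29 and 9.86 and 10.32, 10.01 and 10.25. *Mcm3* was at 9.66, 9.34 and 9.01 and at 9.29, 8.97 and 8.96. C19 was the highest array in all 4, and KO22 lay near C20. *Mcm4* was at 10.22, 10.01 and 9.54 and at 10.01, 9.45 and 9.57, and *Mcm7* at 10.27, 10.07 and 9.77 and 10.14, 9.82 and 10.02. *Cdc6* was at 8.17, 7.77 and 7.74 and at 7.84, 7.62 and 7.73, and *Cdt1* at 9.67, 9.53 and 9.30 and 9.41, 9.32 and 9.35. C19 was again the highest array in all 4. *Pcna* was at 11.64, 11.50 and 11.34 and at 11.53, 11.40 and 11.56, with a difference of 0.00 and an interval from -0.23 to 0.24. Neither the second set nor the deleted lungs stood apart in *Pcna*. *Ccne1* was at 9.36, 8.96 and 8.86 and at 9.12, 8.92 and 9.17. *Ccne2* was at 9.51, 9.41 and 9.02 and at 9.17, 9.04 and 9.48. *Rrm1* was at 11.56, 11.35 and 11.12 and at 11.31, 10.97 and 11.18, and *Rrm2* at 10.40, 10.23 and 9.90 and 10.07, 9.75 and 10.08. In *Pcna*, *Ccne1*, *Ccne2* and *Rrm2* the sets overlap. *Tyms*, *E2f1* and *Chek1* had differences of -0.03, -0.09 and -0.16. *Tyms* was at 9.93, 9.83 and 9.29 and at 9.84, 9.40 and 9.71, *E2f1* at 9.62, 9.47 and 9.30 and 9.52, 9.32 and 9.28, and *Chek1* at 9.27, 8.96 and 8.57 and 8.93, 8.50 and 8.89.

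Within groups the members rose and fell together from array to array. After each group's mean was taken off, the median correlation between pairs of replication genes over the 18 arrays was 0.814 and between pairs of mitosis genes 0.775, against 0.01 between all pairs of probe sets kept. Between a replication gene and a mitosis gene it was 0.699. Without the PN1 *ScapΔ/Δ* arrays, over 15 arrays, these medians were 0.809, 0.822 and 0.663. Over the 9 arrays of the *Scap* line that remain without them they were 0.734, 0.650 and 0.432. The points share their arrays, and the spread within the *Insig* groups follows the sets of arrays, so these correlations are a description of these libraries.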

How the data were processed

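RNA from whole lung was profiled on 18 Affymetrix Mouse Gene 1.0 ST arrays, grouped by the labels alone. The deposited values are log2 expression per probe set; how the authors summarized and normalized them is not given in the sources used here. Of 35556 probe sets 21789 map to 1 symbol. Arrays have no read depth, and the 3 per group limit the precision.

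Following the study's methods, a probe set was kept if it reached the 35th percentile of the array in 66% or more of the arrays fitted. The fits used limma 3.58.1 (R 4.3.3), one on the 4 groups of the *Scap* line (12 arrays, 22800 probe sets) and one on 6 *Insig* arrays (22775). Adjustment was by Benjamini and Hochberg over all probe sets, with calls under 0.05. The fits were tested on simulated data. With 3 arrays against 3 an exact permutation test cannot go below p = 0.1. A gene with several probe sets was taken at the brightest. Members and lists were chosen with earlier results of these data known; array values are given for genes chosen by role, for all that passed and for those with the largest differences. Alternatives were another filter (none, or the 50th percentile), another scaling (quantiles, or centring on the median), a fit of all 18 arrays, a trended spread, array weights, an unmoderated Student test on the groups compared (the methods' t-test in the *Insig* line alone, since the authors analysed the *Scap* line by 2-way analysis of variance), the mean of a gene's probe sets, the *Insig* array set as a block, and leaving out arrays one at a time or KO17 and KO18 together; leaving out KO16, KO17 and KO18 was chosen after seeing the data. Promoter windows are those of RefSeq for GRCm38.p6. Python 3.11.15 was used for tables (pandas 2.3.3 and numpy 2.4.6) and for plots (matplotlib 3.10.9).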

Additional observations from a re-analysis of the deposited data

How the results depend on the processing

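No paired analysis was possible because the array numbers differ between the groups and pair none of the lungs. Medians of the lists kept their sign in all settings run, except in the comparisons that hold the PN1 *ScapΔ/Δ* arrays. Without KO17 and KO18 the medians at PN1 were 0.05 for the replication genes and 0.25 for the mitosis genes, those of the stage change in *ScapΔ/Δ* lungs 0.01 and -0.66, and those of the difference between ages 0.17 and 0.40; *Pcna* changed sign in the stage change of *ScapΔ/Δ* lungs, at 0.03. The causes were not tested.

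Counts of members called moved more. For the stage change in controls the count of 16 was 10 with quantile normalization, 7 with median centring, 4 with an unmoderated Student test on the 6 arrays compared, 25 without KO17 and KO18 and 26 without KO16, KO17 and KO18, and from 2 to 25 when each array was left out. For the stage change in *ScapΔ/Δ* lungs the count of 24 was 0 with that test and 7 without KO17 and KO18. It was 23 with the mean of a gene's probe sets, and from 15 to 31 when each array was left out. With the mean of a gene's probe sets 1 single gene also changed sign in the comparison of genotypes at E18.5. With array weights 2 members were called at E18.5, 25 at PN1, 29 in the *Insig* line and 13 in the difference between ages, where none was called otherwise, apart from 0 to 24 at PN1 and 0 to 14 in the difference between ages when each array was left out. With these weights 11.2%, 68.1%, 36.7% and 64.4% of all probe sets were called as well. When each array was left out, the medians of the replication and mitosis genes ran from -0.27 to -0.12 and from -0.23 to -0.05 at E18.5, from -0.48 to -0.25 and from -0.40 to -0.07 at PN1, from -0.24 to -0.01 and from -0.40 to -0.07 in the *Insig* line, from -0.18 to -0.06 and from -1.13 to -0.94 for the stage change in controls, from -0.59 to -0.29 and from -1.36 to -0.96 for that in *ScapΔ/Δ* lungs, and from -0.28 to -0.01 and from -0.27 to 0.07 for the difference between ages. In the *Insig* line the methods' t-test called no member and 0% of all probe sets. Over single genes and settings 3839 values kept their sign and side, 228 that had not been called changed sign, 162 passed where they had not, 215 no longer passed and 1 that had been called changed sign. At PN1 without KO17 and KO18, 24 single genes changed sign, among them *Ccnb2* (0.43), *Bub1* (0.32), *Nusap1* (0.25), *Pcna* (0.15) and *Rrm1* (0.13).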
